A study of Homo sapiens with 8 samples.

Results

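The genes described here are those of the NRF2 and glutathione defence: NFE2L2, SLC7A11, GCLC, GCLM, TXNRD1, SRXN1, NQO1, ME1 and OSGIN1. Their probe sets were found by symbol in the platform annotation, which gave 23 of the 54675 probe sets on the array. One of these, annotated to NFE2L2 and to a casein kinase gene together, was not used, so 22 remained for the 9 genes. The probe set with the highest mean stood for its gene, and all 9 genes were among the 14731 tested.

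The cells were HTETOP, a line derived from human HT1080 fibrosarcoma cells in which TOP2A is expressed under tetracycline control and is shut off by doxycycline or tetracycline. All 4 groups are this line, so the regulated TOP2A is common to treated and vehicle cells, and no parental cells were included. In one comparison 3 arrays of cells given 100 µM dexrazoxane stood against 3 arrays of vehicle-treated cells, and in the other 1 array of cells given 1 µg/ml doxycycline stood against 1 vehicle array. Each exposure lasted 24 h, and each array carried RNA pooled from 3 passages. Nothing in the labels ties the numbered arrays to separate cultures. The p-values therefore reflect array-to-array spread alone, and it may be technical. Where a fit pairs arrays of the same number, they reflect only the spread left between pairs. That pairing was drawn from the values and not from the labels. The design asks what changes when TOP2A expression is silenced and what changes when topoisomerase II is inhibited by dexrazoxane, which is also hydrolysed to an iron chelator.

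NRF2, the protein of NFE2L2, is a basic leucine zipper transcription factor. In unstressed cells KEAP1 holds it for ubiquitination and destruction. Electrophiles and oxidants modify cysteines of KEAP1, NRF2 then accumulates, pairs with small MAF proteins and binds antioxidant response elements. This control acts on the stability of the protein. The genes it drives import cystine, make glutathione, reduce thioredoxin and sulphinic peroxiredoxins, supply NADPH and reduce quinones. HT1080 cells are widely used to study ferroptosis, the iron-dependent death that follows block of the cystine transporter SLC7A11.

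TOP2A was at 6.02 on the doxycycline array and 11.98 on its vehicle array (log2 expression). It was also lower with dexrazoxane, with 11.20, 10.92 and 10.52 on the treated arrays against 12.41, 12.55 and 12.40 with vehicle. Array medians were 4.81 and 4.82 for the doxycycline pair and 5.49 to 5.57 for the other 6 arrays, so levels are compared within each treatment and its own vehicle. The 7 mesenchymal markers fixed for the line all passed the filter, from THY1 at percentile 59.8 of probe sets to VIM at 99.9. Of 6 epithelial markers 2 passed it, KRT5 and CLDN4 at 60.3 and 58.6, while CDH1 and EPCAM lay at 19.9 and 9.83. Of 4 leukocyte markers CD3E passed it, at 71.0, and of 4 endothelial markers PECAM1 and VWF did, at 66.1 and 49.15. None of the mesenchymal, epithelial, leukocyte or endothelial markers tested was called with dexrazoxane. An array value is a level in bulk RNA, in which fewer cells of a kind and less RNA per cell cannot be told apart. With so few arrays, precision is low throughout.

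Of the 9 genes 2 were called different between dexrazoxane and vehicle arrays, 1 in each direction. SLC7A11 fell 1.51-fold and OSGIN1 rose 1.29-fold in the fit that pairs same-numbered arrays. GCLM and ME1 were lower in each of the 3 pairs but were not called, and NFE2L2, NQO1, GCLC, TXNRD1 and SRXN1 were not called either. The limma fit without pairing called 0 of the 9 genes and 0 of all 14731 genes (0%), with 2 of the 9 at an unadjusted p under 0.05 against 5.19% of all genes. The paired limma fit, at a Benjamini-Hochberg adjusted p under 0.05, called 1 of 9 higher, against 2.42% of all genes, and 1 of 9 lower, against 2.44%. In all 3 pairs 3 of the 9 genes were lower, against 19.4% of all genes, and 2 were higher, against 25.7%. The median difference over the 9 genes was -0.03 and that over all tested genes 0.02 on the log2 scale.

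**Figure D1:**
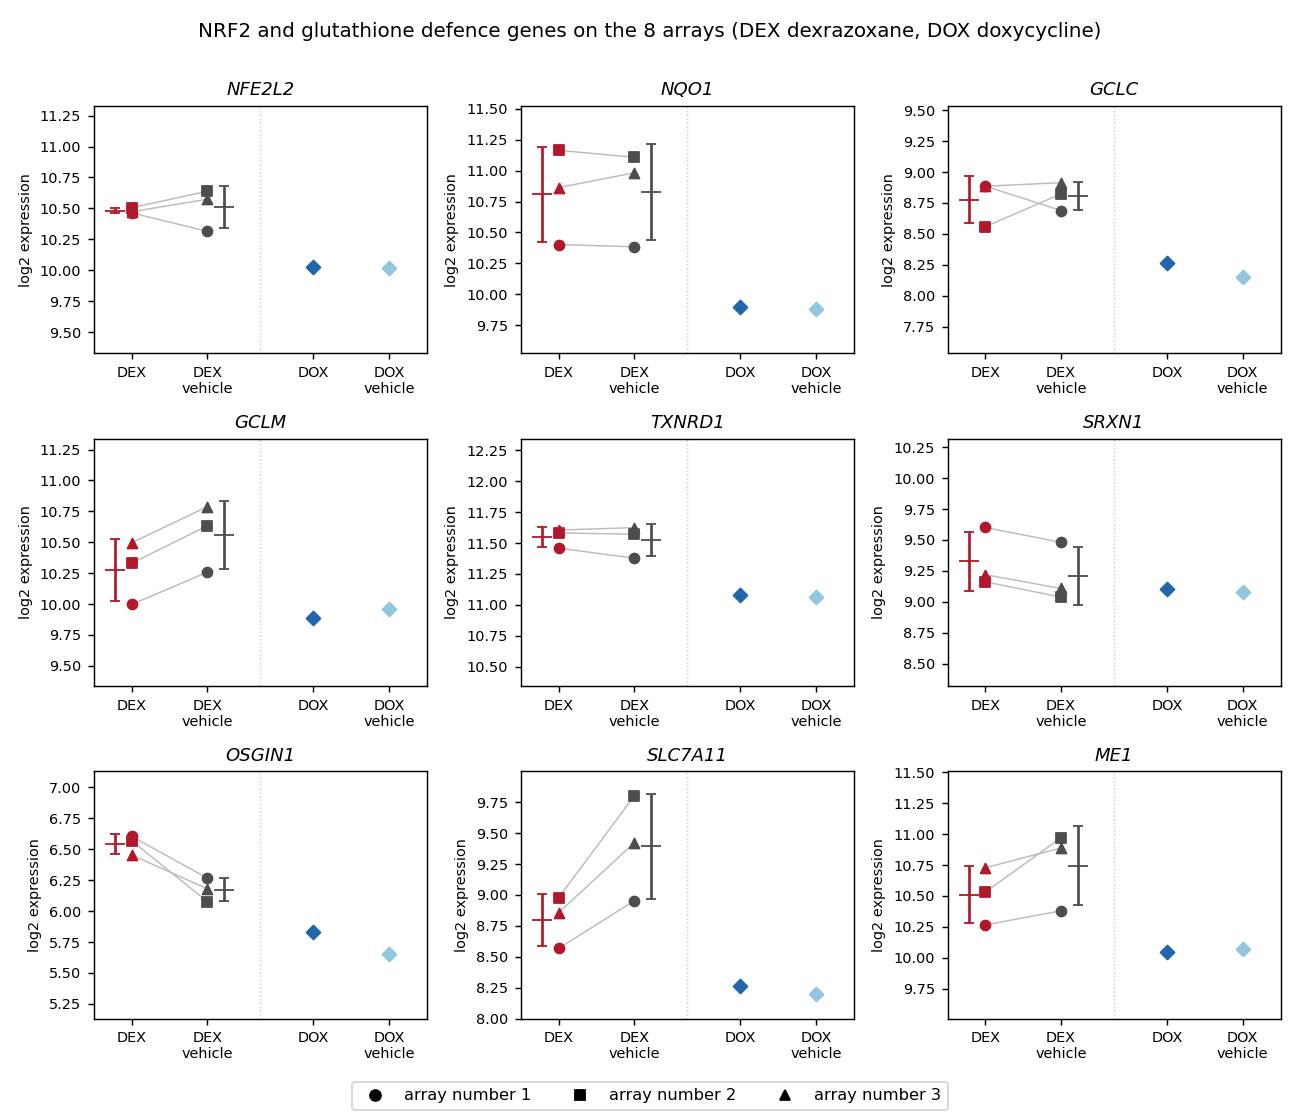
Log2 expression of each gene's brightest probe set on the 8 arrays; the axes differ in position but each spans 2 log2 units. Points are arrays, lines join dexrazoxane and vehicle arrays of the same number, and bars beside them are the mean ± SD of 3 arrays. SLC7A11, GCLM and ME1 slope up towards vehicle in all 3 pairs, SRXN1 and OSGIN1 slope down in all 3, and OSGIN1 alone of the 9 has no overlap.

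The NFE2L2 transcript was not called. Its probe set 201146_at read 10.46, 10.51 and 10.47 on the dexrazoxane arrays, against 10.31, 10.64 and 10.57 on the vehicle arrays. The treated arrays lay inside the range of the vehicle arrays. The paired difference was -0.03 ± 0.08 (SE, n = 3 pairs) with a 95% interval of -0.22 to 0.17, and the limma paired adjusted p was 0.879. Here and below, SEs and intervals are limma's moderated values, which draw each gene's variance towards a value common to the fit. The dimmer probe sets 1567013_at and 1567015_at differed by -0.16 and -0.17, with intervals that include 0.

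SLC7A11 encodes the light chain of the cystine-glutamate exchanger, which brings in the cystine from which cells make the cysteine of glutathione. It read 8.57, 8.98 and 8.86 on the dexrazoxane arrays, against 8.95, 9.80 and 9.42 on the vehicle arrays. The groups overlapped, since the dexrazoxane array numbered 2 was just above the vehicle array numbered 1, while each treated array lay below the vehicle array of its own number. The differences by pair were -0.39, -0.82 and -0.57. Their mean was -0.59 ± 0.10 (SE, n = 3 pairs), with a 95% interval of -0.81 to -0.37 and a limma paired adjusted p of 0.0187. Without the pairing the SE was 0.22 and the limma adjusted p 0.941, and with the pairing over all 41097 probe sets and no filter it was 0.058, so the call was lost there. A second probe set, 217678_at, had a difference of -0.44, and the dimmest, 207528_s_at, one of -0.17 with an interval of -0.36 to 0.03. The 3 probe sets thus shared a sign in all 3 pairs but spread in size.

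The first step of glutathione synthesis joins glutamate to cysteine. GCLC is its catalytic subunit and GCLM the modifier subunit that raises the enzyme's efficiency. GCLC read 8.89, 8.56 and 8.89 with dexrazoxane, against 8.69, 8.82 and 8.91 with vehicle. Its groups overlapped and its pairs disagreed in sign, with 0.20, -0.27 and -0.03. The paired mean was -0.03, with an interval of -0.26 to 0.19.

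GCLM read 9.998, 10.33 and 10.50 on the dexrazoxane arrays, against 10.26, 10.63 and 10.79 on the vehicle arrays. The groups overlapped, yet the pairs differed by nearly one amount, -0.26, -0.30 and -0.29. The paired mean was -0.28 ± 0.07 (SE, n = 3 pairs), with an interval of -0.45 to -0.12 and a limma paired adjusted p of 0.0646, so GCLM missed the threshold. Its other probe sets, 236140_at and 234986_at, differed by -0.41 and -0.36. On 236140_at all treated arrays lay below all vehicle arrays, as on 4.05% of all probe sets, with 8.61, 8.89 and 8.97 in treated and 9.23, 9.27 and 9.20 in vehicle cells. With the mean of its 3 probe sets, GCLM was called lower in the paired limma fit, at -0.35 and an adjusted p of 0.0295. It was also called with the 60th percentile filter, at an adjusted p of 0.0376, and with trended, robust variances, at 0.0049. These were the only 3 of 11 alternatives to the paired fit that called it, and the adjusted p reached 0.235 in the others. Over all probe sets with no filter, 203925_at, 236140_at and 234986_at were not called, at limma paired adjusted p of 0.164, 0.117 and 0.112.

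TXNRD1, the selenoenzyme that reduces cytosolic thioredoxin with NADPH, read 11.46, 11.58 and 11.61 with dexrazoxane, against 11.38, 11.57 and 11.63 with vehicle. The difference was 0.02, with an interval of -0.14 to 0.19. Its other probe set, 1561080_at, had a mean log2 value of 2.45, under the filter, and is not read further.

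SRXN1 encodes sulfiredoxin, which restores over-oxidised peroxiredoxins. It read 9.60, 9.16 and 9.22 with dexrazoxane, against 9.48, 9.04 and 9.11 with vehicle. Arrays of the same number moved together, so that the pairs gave 0.12, 0.12 and 0.11 while the SD within each group was 0.24. The mean of 0.12 ± 0.07 (SE, n = 3 pairs) was not called, at a limma paired adjusted p of 0.374. That SE is the moderated one and is wider than the spread of these 3 pairs.

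**Figure D2:**
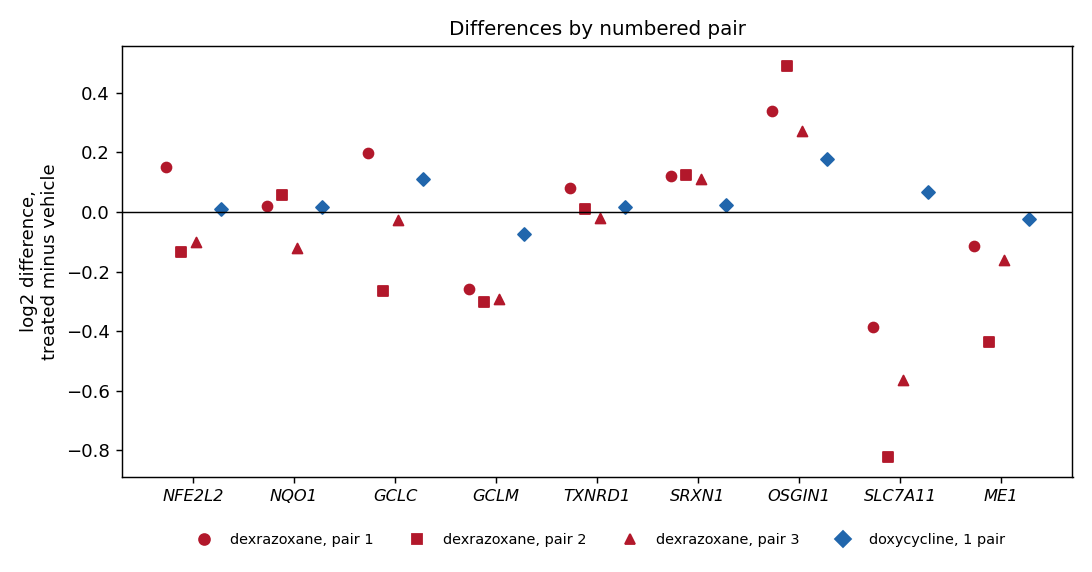
Log2 difference, treated minus vehicle, of each gene in the 3 numbered dexrazoxane pairs (red) and the doxycycline pair (blue). SLC7A11, GCLM and ME1 are below 0 and SRXN1 and OSGIN1 above 0 in all 3 dexrazoxane pairs, and NFE2L2, NQO1, GCLC and TXNRD1 have pairs on both sides.

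ME1, the cytosolic malic enzyme that makes NADPH from malate, read 10.27, 10.53 and 10.73 on the dexrazoxane arrays, against 10.38, 10.97 and 10.89 on the vehicle arrays. The groups overlapped, and each pair was lower, by -0.11, -0.44 and -0.16. The mean was -0.24 ± 0.09 (SE, n = 3 pairs), with an interval of -0.44 to -0.04 and a limma paired adjusted p of 0.158. Its other probe sets, 204058_at and 211204_at, differed by -0.07 and -0.02. They were not lower in every pair, with 0.05 in pair 1 for 204058_at and 0.14 in pair 3 for 211204_at. Only with trended, robust variances was ME1 called lower, at a limma paired adjusted p of 0.0289.

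NQO1, the flavoenzyme that reduces quinones by a 2-electron step and a standard reporter of NRF2 activity, read 10.40, 11.16 and 10.86 with dexrazoxane, against 10.38, 11.11 and 10.98 with vehicle. The spread within each group was far larger than the difference of -0.02, which had a paired interval of -0.19 to 0.16. Its 3 probe sets differed by -0.11 to 0.02.

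OSGIN1 encodes an oxidative stress-induced growth inhibitor known as a target of NRF2. It read 6.60, 6.57 and 6.45 on the dexrazoxane arrays, against 6.27, 6.08 and 6.18 on the vehicle arrays. All treated arrays lay above all vehicle arrays, as they did for 6.53% of all genes tested. The difference was 0.37 ± 0.08 (SE, n = 3 pairs), with an interval of 0.19 to 0.55 and a limma paired adjusted p of 0.0401. Without the pairing the limma adjusted p was 0.941. The paired call was lost without pair 1, 2 or 3 (limma adjusted p of 0.130, 0.0685 and 0.0676), with no filter (0.062), with only specific probe sets (0.051), with each probe set taken singly (0.074) and with another quantile normalization (0.053). OSGIN1 has 1 probe set on the array.

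RefSeq promoter windows of 300 bases (GRCh38.p14, 250 before to 50 after an annotated start) were at hand for 8 of the 9 genes, all but SLC7A11. They were searched on both strands for the antioxidant response element core TGACNNNGC, which 13.3% of 35116 windows hold, and for the AP-1 element TGACTCA, held by 4.95%. The 2 can overlap. The core lay in windows of GCLM, ME1 and TXNRD1, and no window of NFE2L2, NQO1, GCLC, SRXN1 or OSGIN1 held it, which says nothing of more distant elements. The 4 windows below are those of OSGIN1, GCLM and ME1 and the first of TXNRD1, with both motifs in capitals. OSGIN1 was called higher in the paired fit, GCLM and ME1 were lower in every pair on their brightest probe sets, and TXNRD1 was not called. The other TXNRD1 window, not printed, has a core, TGACAAAGC, on the opposite strand at bases 149 to 157. In the first window of TXNRD1 and that of ME1 the core occurs on both strands, and the AP-1 element of ME1 lies within a core, TGACTCAGC. In the GCLM window the core reads TGACTAAGC on the opposite strand, at bases 217 to 225. OSGIN1 has an AP-1 element at bases 154 to 160 and no core. A match is a match of letters and no evidence of binding, and the C/EBP-ATF element TGATGNAA, held by 3.62% of windows, matched none of the windows of these genes.
OSGIN1 chr16:83952990-83953289 (+): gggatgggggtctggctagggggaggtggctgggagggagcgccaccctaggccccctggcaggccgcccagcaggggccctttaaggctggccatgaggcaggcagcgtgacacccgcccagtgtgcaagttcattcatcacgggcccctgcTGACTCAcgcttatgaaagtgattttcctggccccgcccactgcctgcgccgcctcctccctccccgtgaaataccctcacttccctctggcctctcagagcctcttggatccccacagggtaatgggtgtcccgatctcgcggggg
GCLM chr1:93909381-93909680 (-): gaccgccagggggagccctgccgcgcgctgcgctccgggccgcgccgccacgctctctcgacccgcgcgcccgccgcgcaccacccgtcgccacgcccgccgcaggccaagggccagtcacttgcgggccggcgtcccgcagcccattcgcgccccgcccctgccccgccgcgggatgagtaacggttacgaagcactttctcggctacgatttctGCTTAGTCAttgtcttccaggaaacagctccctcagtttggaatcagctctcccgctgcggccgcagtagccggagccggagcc
ME1 chr6:83431002-83431301 (-): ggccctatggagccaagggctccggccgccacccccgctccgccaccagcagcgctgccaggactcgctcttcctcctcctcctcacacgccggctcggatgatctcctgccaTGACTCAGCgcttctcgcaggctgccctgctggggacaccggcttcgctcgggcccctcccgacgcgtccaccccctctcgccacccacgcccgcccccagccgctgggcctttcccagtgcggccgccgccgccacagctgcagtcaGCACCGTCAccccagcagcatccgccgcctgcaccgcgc
TXNRD1 chr12:104215529-104215828 (+): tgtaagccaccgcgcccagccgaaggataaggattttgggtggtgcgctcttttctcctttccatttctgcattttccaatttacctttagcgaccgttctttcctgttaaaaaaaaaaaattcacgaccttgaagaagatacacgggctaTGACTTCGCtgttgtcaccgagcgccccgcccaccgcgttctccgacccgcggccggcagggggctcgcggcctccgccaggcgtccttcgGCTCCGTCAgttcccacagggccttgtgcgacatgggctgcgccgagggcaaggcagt

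The dexrazoxane difference was below 0 for 18 of them, against 49.4% of all probe sets, and above 0 for 4, over a range of -0.59 to 0.37. Of the 22, 8 were lower in all 3 pairs, against 18.5% of all probe sets: every one of SLC7A11 and GCLM, one of ME1 and one of NFE2L2. Tested together with all 41097 singly annotated probe sets and no filter, 0 of the 22 were called in the paired limma fit, against 0.168% of all probe sets higher and 0.204% lower. In that fit the adjusted p was 0.058 for the brightest SLC7A11 probe set and 0.112 for OSGIN1. Probe sets of one gene share their transcript and arrays and are not replicates.

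**Figure D3:**
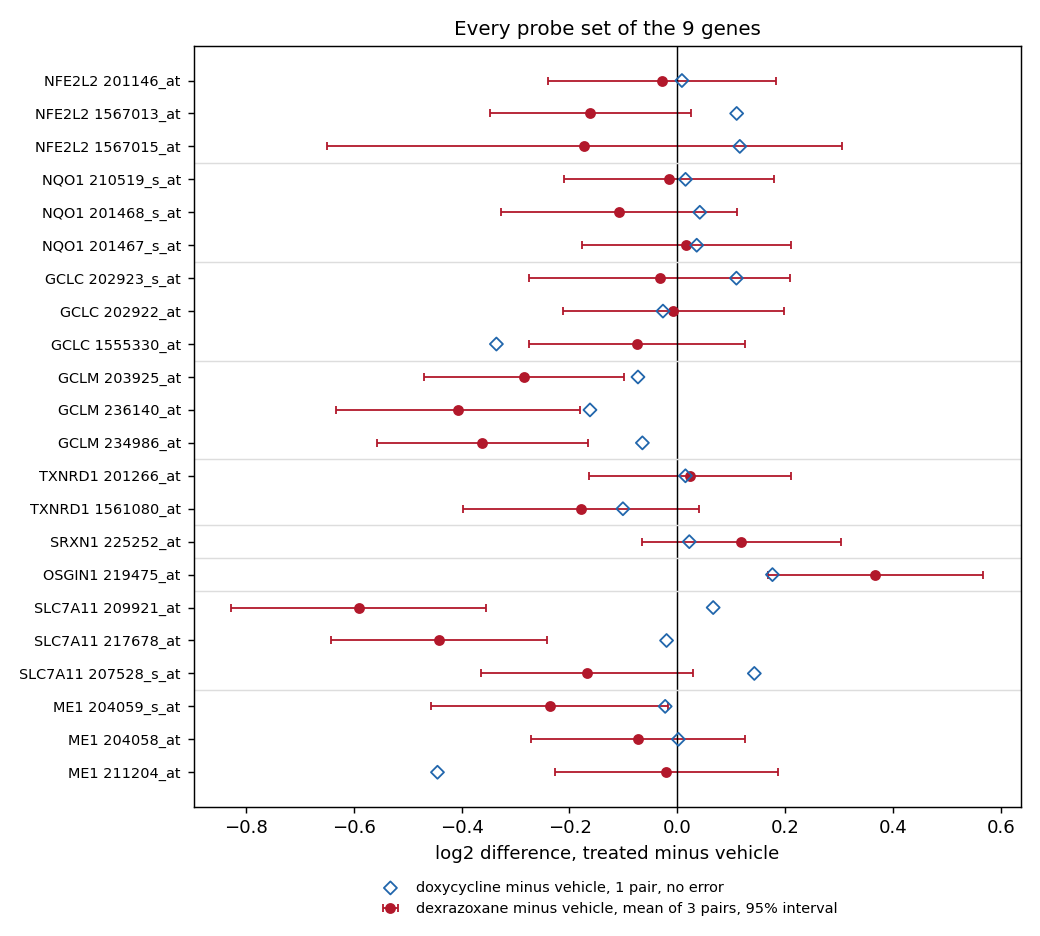
Log2 difference for every probe set of the 9 genes, from -0.59 to 0.37 with dexrazoxane. Red points are the mean of 3 dexrazoxane pairs with the 95% interval of the paired fit, and open blue diamonds are the doxycycline array minus its vehicle array, with no error. The 3 GCLM intervals, 2 of the 3 SLC7A11 intervals and that of the brightest ME1 probe set lie below 0, and that of OSGIN1 above.

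The array number carried much of the spread. The array numbered 1 was the lowest of its group in both groups for 6 of the 9 genes (NFE2L2, NQO1, GCLM, TXNRD1, SLC7A11 and ME1), against 24.8% of all genes. It was the highest in both groups for SRXN1 and OSGIN1, against 31.9%. The SEs of SLC7A11, GCLM, ME1 and NQO1 were 0.10, 0.07, 0.09 and 0.08 with the pairing, against 0.22, 0.18, 0.19 and 0.24 without it. Those of NFE2L2, GCLC, TXNRD1, SRXN1 and OSGIN1 were 0.08, 0.10, 0.07, 0.07 and 0.08, against 0.13, 0.14, 0.12, 0.17 and 0.12. Not every gene followed the number. Same-numbered arrays lay on opposite sides of their group means for GCLC at numbers 1 and 2, OSGIN1 at numbers 2 and 3, and NFE2L2 at number 3. Over the 6 arrays the genes most like NFE2L2 were GPRIN2, PCNP and SNX32 (Pearson r of 0.99, 0.982 and 0.98), and those most like SLC7A11 were NRCAM, HIPK2 and SCNN1B (0.996, 0.993 and 0.989). These are the highest of 14731 genes over 6 arrays that share the treatment and the array numbers, and are given as a description.

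With doxycycline, which took TOP2A down on its array, none of the 9 genes differed by 1.2-fold (0.263 on the log2 scale) in either direction, a bound that 2.5% of all tested genes passed upwards and 3.43% downwards. With 1 array a group there is no replicate and no test. OSGIN1 had the largest difference of the 9, at 5.83 on the doxycycline array against 5.66 on the vehicle array, or 0.18. GCLC followed, at 8.26 against 8.15, or 0.11. The dimmer GCLC probe sets 202922_at and 1555330_at gave -0.03 and -0.34, so its sign depended on the probe set.

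SLC7A11 read 8.27 on the doxycycline array and 8.20 on its vehicle array, a difference of 0.07, and its other probe sets gave -0.02 and 0.14. With dexrazoxane the same 3 probe sets were below 0. Whether the 2 treatments differ for this gene was not tested. GCLM was at 9.89 with doxycycline and 9.96 with vehicle, a difference of -0.07, and its other probe sets gave -0.16 and -0.06. NFE2L2, NQO1, TXNRD1, SRXN1 and ME1 lay between -0.02 and 0.02. For scale, the SD of the doxycycline difference over all tested genes was 0.146. Of the 22 probe sets 2 passed 1.2-fold downwards, 1555330_at of GCLC and 211204_at of ME1 (-0.44), against 5.83% of all probe sets, and 0 passed it upwards, against 5.05%. On these the doxycycline array read 4.03 and 4.89, near or under the array median of 4.81. In this pair 9.62% of all probe sets read the same to every digit on both arrays, but 0 of these 22 did.

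The wider pathway was called at a share near that of all genes. The 5 lists drawn from general knowledge held 110 other genes, of which 97 were tested, and the paired limma fit called 3 higher and 1 lower, against 2.42% and 2.44% of all genes. Their median difference was 0.04, against 0.02 over all genes. Without the pairing 0 were called, and 4 of 97 had an unadjusted p under 0.05, against 5.19% of all genes. All treated arrays lay above all vehicle arrays for 5 of the 97 genes, against 6.53% of all genes, and below them for 4, against 3.62%. These 9, picked out by that count, were GSS, GSTP1, GSTT2, HAGH and SLC48A1 above and CHAC2, GLO1, MTHFD2 and PGD below.

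Among 11 tested regulators of NRF2 none was called, where 2.42% of all genes were called higher and 2.44% lower. KEAP1, which targets NRF2 for destruction, read 8.69, 8.69 and 8.42 with dexrazoxane, against 8.62, 8.27 and 8.19 with vehicle, and SQSTM1, the autophagy receptor that can draw KEAP1 away, had a difference of 0.22. The interval of KEAP1 was 0.04 to 0.44, and its limma paired adjusted p 0.158. The small MAF partner MAFG differed by 0.11 and BACH1, a repressor at the same elements, by -0.15.

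Of 37 tested glutathione genes 1 was called higher and 0 lower, which is near the shares of 2.42% and 2.44% over all genes. GSTT1, a theta class glutathione transferase, read 7.18, 7.49 and 7.57 with dexrazoxane, against 6.86, 7.001 and 7.22 with vehicle, and rose by 0.38 ± 0.08 (SE, n = 3 pairs). With the mean of its probe sets GSTT1 was at 0.12, and its limma paired adjusted p of 0.0334 became 0.304. GSS, which completes glutathione, differed by 0.23, with 9.45, 9.41 and 9.50 on treated arrays against 9.23, 9.16 and 9.28 on vehicle arrays, and an adjusted p of 0.106. SLC3A2, the heavy chain that anchors SLC7A11 in the membrane, differed by -0.08, with an interval of -0.25 to 0.09. CHAC1, which degrades glutathione, differed by 0.15, the glutathione reductase gene GSR by 0.0004, and GPX4, the lipid hydroperoxide reductase that guards against ferroptosis, by -0.09. None of these 4 was called.

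In the thioredoxin list 1 of 16 genes was called higher and 0 lower, against 2.42% and 2.44% of all genes. PRDX2, a cytosolic peroxiredoxin, rose by 0.38 ± 0.09 (SE, n = 3 pairs) at a limma paired adjusted p of 0.0486, with 9.70, 10.49 and 10.31 in treated and 9.44, 9.92 and 10.01 in vehicle cells. With the mean of its probe sets PRDX2 was at 0.23 and an adjusted p of 0.159, and its call was also lost with no filter (0.073), with only specific probe sets (0.061), with each probe set taken singly (0.087) and with another quantile normalization (0.060). TXN, the cytosolic thioredoxin, and PRDX1, another peroxiredoxin, were not called and differed by 0.03 and 0.09. None of the 12 tested genes of NADPH supply was called, against the same shares of all genes.

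Among 21 detoxification, haem and export genes the paired limma fit called BLVRB higher and TRIM16 lower. That is 1 of 21 in each direction, against 2.42% and 2.44% of all genes. Without the pairing 0 of the 21 were called. BLVRB, which encodes biliverdin reductase B, a flavin reductase, read 8.63, 9.45 and 9.53 with dexrazoxane, against 8.27, 8.93 and 8.96 with vehicle. Its difference was 0.48 ± 0.08 (SE, n = 3 pairs) at a limma paired adjusted p of 0.019. TRIM16, a tripartite motif ubiquitin ligase, read 9.03, 9.15 and 9.35, against 9.32, 9.68 and 9.71, a difference of -0.39 ± 0.08 (SE, n = 3 pairs) at 0.0348. A closely similar gene, TRIM16L, exists, and how far the probes tell the pair apart was not tested. HMOX1, the haem oxygenase gene that NRF2 and BACH1 regulate in opposite directions, differed by 0.12, with an interval of -0.10 to 0.34. AKR1C1, whose probe set is marked as cross-hybridising, differed by 0.07.

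With 1 pair fewer most of these calls were lost while the differences kept their sign, at 0.33 to 0.42 for GSTT1, 0.28 to 0.43 for PRDX2, -0.44 to -0.33 for TRIM16 and 0.44 to 0.54 for BLVRB. GSTT1, PRDX2 and TRIM16 lost theirs whichever pair was left out, at limma paired adjusted p of 0.051 to 0.103, 0.0776 to 0.110 and 0.0549 to 0.094. BLVRB lost its call without pair 1 (0.0592) and without pair 3 (0.054). With doxycycline 1 of the 97 genes passed 1.2-fold upwards, SLC48A1 at 0.28, and 5 passed it downwards, GPX2, GSTM2, GSTM4, IDH2 and AKR1C1, against 2.5% and 3.43% of all genes. These 6 were named after their values were seen. On the doxycycline array GPX2, GSTM4 and IDH2 read 4.36, 3.94 and 4.82, near or under the array median of 4.81. The probe sets of GSTM2, GSTM4 and AKR1C1 are marked as cross-hybridising.

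**Figure D4:**
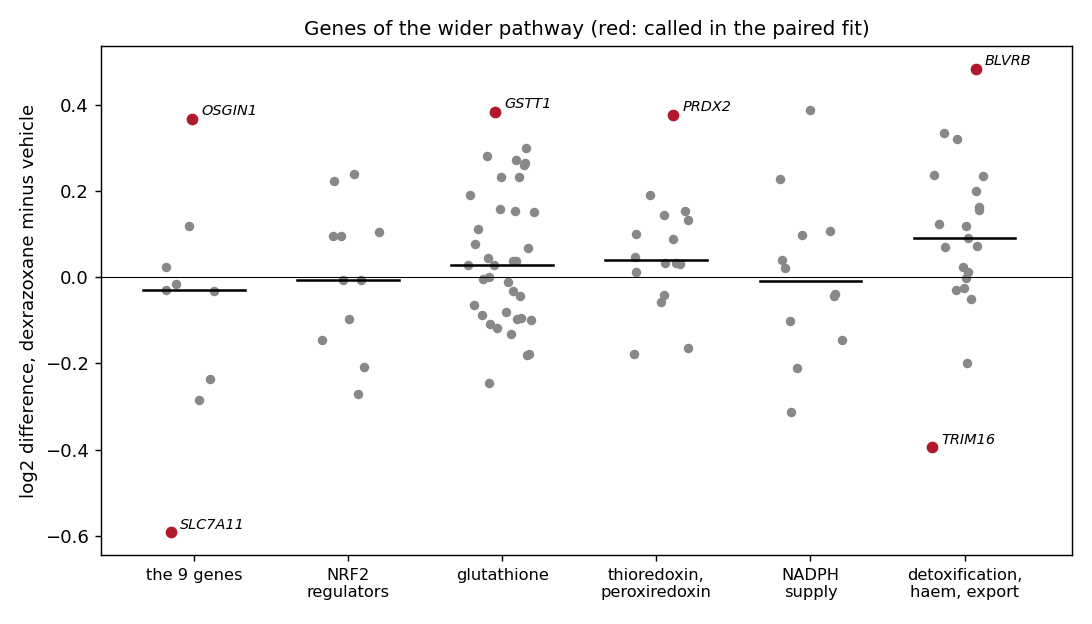
Log2 difference, dexrazoxane minus vehicle, of the 9 genes and of the tested genes of the 5 wider lists; each point is a gene and each black line a list median. Red points are genes called in the paired fit: OSGIN1, GSTT1, PRDX2 and BLVRB above 0, SLC7A11 and TRIM16 below.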

How the data were processed

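Biotin-labelled RNA was hybridised to Affymetrix arrays. The deposited table gives log2 values for each probe set from RMA, as the submitters' processing notes name it; joint processing of all arrays is not stated there. No further normalization was applied. The platform annotation gave 41097 probe sets 1 symbol and 1801 several, and left 11777 unnamed. Of the 41097, 41043 were matched by Entrez identifier to RefSeq (GRCh38.p14) and took its symbol, whether or not it differed. The brightest probe set stood for each of 19775 genes. The 14731 genes at or above the 40th percentile of probe set means (4.83) were tested with limma 3.58.1 (R 4.3.3), two-sided, with Benjamini-Hochberg adjustment over all of them and a bound of 0.05. The planned fit had no block. The numbers 1 to 3 were then checked. Deviations from group means correlated at 0.823, 0.574 and 0.716 between same-numbered arrays and at -0.629 to 0.181 otherwise. Deviations of 3 arrays from their mean sum to 0, so positive values between some arrays go with negative ones between others. After this check a fit with the replicate number as a block (the paired fit) was added. The called genes named above come from it and not from the planned fit. This pairing rests on the same data, not on the labels. SEs and 95% intervals are from the paired fit unless said otherwise. They are limma's moderated values and not the SE of the pair differences of 1 gene alone. The procedure was tested on simulated data built so that same-numbered arrays shared a level. That run cannot show whether the pairing holds in the real arrays, and its recovery rates are not given here. The genes and lists were chosen with earlier results of these data known. Named genes were the 9 genes, TOP2A, 14 fixed pathway genes where measured, pathway genes called in the paired fit, and the 3 genes nearest to NFE2L2 and to SLC7A11. Alternatives covered the block, filter, probe set rule, scaling, variance model, fold, and each array or pair left out.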

Additional observations from a re-analysis of the deposited data

How the results depend on the processing

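The fit with the replicate block called 1 of the 9 genes higher and 1 lower, and 3 of the 97 pathway genes higher and 1 lower. Without the block limma called 0 of the 9 genes, 0 of the pathway genes and 0 of the 22 probe sets in each alternative run. In the planned fit without the block, 2 of 9 and 4 of 97 genes had an unadjusted limma p under 0.05, against 5.19% of all genes. Of the 22 probe sets 5 did, in the fit over all probe sets. The share of all probe sets is not given here, and probe sets of 1 gene are not replicates. SLC7A11 kept its paired call in 11 of 11 alternatives to the fit by gene, at limma adjusted p of 0.000168 to 0.0439, and lost it over all 41097 probe sets with no filter, at 0.058. OSGIN1 kept its call in 4 of 11, at 0.0199 to 0.130.

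In the paired fit, no filter left 0 of the 9 genes higher, with 1 pathway gene higher and 0 lower. The 60th percentile filter gave 2 of the 9 lower, with 6 pathway genes higher and 2 lower. The mean of probe sets gave 2 of the 9 and 3 pathway genes lower. Specific probe sets left 0 of 8 higher, NQO1 having none, and another quantile normalization left 0 of the 9. Every probe set taken singly left 0 of the 9 and 1 pathway gene higher. Trended, robust variances gave 3 of the 9 lower, 12 pathway genes higher and 5 lower, and 1 of the 22 probe sets higher and 5 lower. The 40th percentile filter gave 1 of the 22 lower. With a pair left out, 0 of the 9 genes were higher, 0 to 1 pathway genes were higher and 0 were lower. The shares of all genes or probe sets called under these settings are not given here. Those of 2.42% and 2.44% of all genes belong to the paired fit used above. These counts therefore do not compare the 9 genes, the pathway or the probe sets with the rest of the array. The filters change how many features are adjusted over. For the other settings the cause was not tested. With doxycycline, a bound of 1.1-fold put 1 of the 9 genes above it.

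Some differences near 0 changed sign, and none of them was called where they did. With the mean of probe sets TXNRD1 was at -0.077, TXN at -0.033 and GSR at -0.094. TXN was at -0.10 with specific probe sets, and GSR at -0.0027 with centred arrays. Leaving out 1 array turned the sign for NFE2L2 (-0.13 to 0.036), NQO1 (-0.24 to 0.19), GCLC (-0.093 to 0.076), TXNRD1 (-0.050 to 0.074), SRXN1 (-0.018 to 0.25), HMOX1 (-0.071 to 0.32), TXN (-0.025 to 0.062), GSR (-0.079 to 0.10), CHAC1 (-0.11 to 0.41) and AKR1C1 (-0.050 to 0.22), as ranges over the 6 arrays. Leaving out 1 pair in the paired fit turned it for NFE2L2 (-0.12 to 0.024), NQO1 (-0.051 to 0.037), GCLC (-0.15 to 0.084), TXNRD1 (-0.0049 to 0.046), BACH1 (-0.29 to 0.012), GSR (-0.12 to 0.081) and AKR1C1 (-0.11 to 0.21). With doxycycline, where no test was run, the alternatives spanned 0 for GCLC (-0.084 to 0.12), NFE2L2 (-0.0017 to 0.078), NQO1 (-0.0047 to 0.031), TXNRD1 (-0.043 to 0.026) and ME1 (-0.16 to 0.0020). For the 9 genes, 121 of 134 alternatives to the fit without the block kept their direction and threshold side or moved little. So did 81 of 98 alternatives to the paired fit and 51 of 53 with doxycycline. Those 134 include the fit with the block itself. Centring put the median of all genes at 0.0131 with dexrazoxane and another quantile normalization at 0.0144, against 0.0162 as deposited.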
